A study of Homo sapiens with 18 samples.

Results

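Untreated K562 cells make up 6 of the 18 nascent RNA libraries of the series, 3 in a group named CTRL and 3 in a group named CTRLim. The libraries were chosen by their labels alone. K562 is an established line from chronic myeloid leukaemia in blast crisis that carries the BCR-ABL1 fusion and expresses embryonic and fetal globins, and neither group received a drug or an osmotic shock. According to the study's methods, CTRLim cells were prepared with the imatinib-treated cells, and no such statement is made for CTRL. The labels give biological replicates of 1 cell line with no further description of the cultures. The labels name RPMI1640 as the medium and the study's methods name Iscove's medium, with no statement of which group grew in which. Long PacBio reads of chromatin-bound RNA were counted as readthrough when they overlapped the last exon of a gene and ended more than 100 nt past its annotated end.

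The 3′ end of most human mRNAs is made when the cleavage and polyadenylation complex recognises a hexamer, most often AATAAA, and cuts the RNA a short way downstream. RNA polymerase II continues past the cut and terminates later. A nascent read that runs past the end of a gene is therefore an RNA that had not been cut when it was collected. Replication-dependent histone mRNAs are an exception, since they end in a stem-loop and are cut by a separate machinery with the U7 snRNP. Mitochondrial transcripts are another, since they are made as long polycistronic RNAs and are cut out around their tRNAs.

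The ends of some genes that led the counts or differed between the groups are shown with these 2 signals, where present. Capitals mark the hexamer AATAAA or the histone stem-loop, searched as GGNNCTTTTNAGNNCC in the last 50 bases of the transcript on its own strand. All are the last 30 bases of the annotated transcript in GENCODE 44 on GRCh38.
H2AC13 (chr6:27808638-27808667, forward): ggaaccaaaGGCTCTTTTCAGAGCCaccta
H1-2 (chr6:26055740-26055769, reverse): aaacccaaaaGGCTCTTTTCAGAGCCacca
H4C2 (chr6:26026896-26026925, reverse): tcttccaatGGCCCTTTTCAGGGCCgccca
H3C10 (chr6:27811271-27811300, forward): atgactaAATAAAatctgtataatccccac
HBG1 (chr11:5248269-5248298, reverse): AATAAAtctattctgctgagagatcacaca
TXNIP (chr1:145992435-145992464, reverse): aaAATAAAgtttttttaatggaaaaaaaaa
EIF4A2 (chr3:186789868-186789897, forward): atgttaAATAAAttgtatattcactttaaa
SLC38A2 (chr12:46358188-46358217, reverse): gaactaaAATAAAtacatgcttaatcctga
ACADM (chr1:75787546-75787575, forward): tgttattggagaaacatgcagattatatcg
The ACADM transcript used by the study ended in neither hexamer. Its readthrough boundary lay inside RABGGTB on the same strand, so that reads of that gene may be among its counts.

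The libraries held between 258592 and 410442 reads in CTRL and between 229855 and 540074 in CTRLim after the removal of polyadenylated reads and splicing intermediates. Of the raw reads, between 42.0% and 44.1% had mapped in CTRL and between 86.7% and 91.6% in CTRLim, and splicing intermediates made up between 8.84% and 15.99% of the mapped reads without a poly(A) tail in CTRL and between 15.2% and 17.8% in CTRLim. The groups differ in their preparation, and the study names 2 PacBio instruments without assigning them, so culture, preparation and sequencing cannot be told apart as sources of a difference. CTRLim replicates 2 and 3 did not differ detectably beyond sampling noise. Over 835 genes with at least 10 reads in the pair, chi-square per degree of freedom was 1.03 and p = 0.27, whereas it lay between 1.32 and 2.09 in the other 5 pairs within a group. These 2 libraries were therefore counted as 1 sample in each mean ± SD of CTRLim below, and called genes were also counted with the reads of both summed. The p-values measure the spread between these libraries, which may be technical. The study also lists median read lengths for CTRL, longest in the last CTRL replicate, and none for CTRLim. Whether read length had a part in the differences between libraries, or between genes grouped by base composition or last exon length, was not tested.

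Of the erythroleukaemia markers, HBG1 had 610 readthrough reads over the 6 libraries, HBE1 had 376 and TAL1, an erythroid transcription factor, had 62. GATA1 had 8 reads and HBZ had 1, and the monocyte marker LYZ had 0 reads. A count of 0 allows up to 3 reads per library. HBG2, CD3E, MS4A1, CD14, ALB and COL1A1 were not analysed here.

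Readthrough reads made up 3.33%, 3.32% and 3.55% of the library reads in the CTRL replicates and 4.44%, 3.79% and 3.85% in the CTRLim replicates. Every CTRLim library lay above every CTRL library. The mean was 3.399% ± 0.128 (SD, n = 3) in CTRL and 4.13% ± 0.438 (SD, n = 2) in CTRLim, a difference of 0.730 percentage points, or 0.627 with the 3 CTRLim libraries kept apart. In both cases p = 0.1 in a two-sided exact permutation test over libraries, which is the smallest p these designs allow. The difference depends on the total that readthrough reads are divided by, since with all mapped reads as the total it was 0.377 points and p = 0.3 in the same exact test. The reads were spread over many genes. Over the 6 libraries, 84432 readthrough reads fell on 8569 transcripts, of which 61.0% had between 1 and 5 reads. CTRL had reads on 6902 genes and CTRLim on 6993, and the 5326 genes in both made up 77.2% of the first and 76.2% of the second. A read in all 6 libraries was found for 1120 genes, which held 57.7% of the readthrough reads, and at least 10 reads in all 6 for 61 genes.

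Replication-dependent histones made up the largest group among the leading genes of untreated cells by the mean over both groups, beside 2 globins (HBG1 and HBE1) and 2 translation factors (EIF4A2 and EEF1A1). Of the tested genes, 0.424% were globins and 1.27% translation factors. The 2 groups did not rank these genes alike, since HBE1 ranked 38 in CTRL and 7 in CTRLim, and H1-2 ranked 47 and 9. Of the 20 genes with the most readthrough reads per 1000000 library reads (RPM), 7 were replication-dependent histones (H2AC13, H4C2, H2AC15, H2BC12, H3C10, H1-2 and H3C2), against 7.42% of the 472 genes with at least 30 reads. These 20 genes held 8.69% ± 1.74 of the readthrough reads in CTRL (SD, n = 3) and 11.7% ± 0.754 in CTRLim (SD, n = 2), with between 7.25% and 10.6% in the CTRL libraries and between 11.0% and 12.2% in CTRLim. The top 100 held 21.3% ± 4.02 and 26.5% ± 0.495. The groups ranked separately shared 13 of their top 20 genes, 31 of their top 50 and 73 of their top 100.

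HBG1, which codes for a fetal globin chain, ranked 3 in CTRL and 4 in CTRLim. It had 219, 266 and 302 RPM in the CTRL replicates and 426, 217 and 262 RPM in CTRLim, and the groups overlapped (log2 fold change 0.19 ± 0.36 SE, edgeR adjusted p = 0.760). HBG1 and HBG2 are near-identical copies, and the authors kept 1 placement for each read, so reads of the copies may have been split between them and the level of HBG1 is uncertain. UROD, an enzyme of heme synthesis, had 169, 163 and 247 RPM in CTRL and 369.8, 167 and 173 in CTRLim, which also overlapped (adjusted p = 0.680). In both genes the highest library was CTRLim replicate 1. FTL, the light chain of the iron store ferritin, ranked 8 in CTRL and had 249.5, 78.0 and 143 RPM there. Its 100.1, 57.4 and 67.0 RPM in CTRLim overlapped the CTRL values, and the adjusted p was 0.0789. PRAME, a tumour antigen, had between 117 and 144 RPM in CTRL and between 97.5 and 135 in CTRLim.

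Among genes of growth and translation, EEF1A1, the elongation factor that carries aminoacyl-tRNA to the ribosome, had 94.3, 119 and 88.9 RPM in CTRL and 178, 141 and 158 in CTRLim. MCM7, a subunit of the replicative helicase, had between 99.8 and 105 RPM in CTRL and between 126 and 157 in CTRLim. Neither EEF1A1 nor MCM7 passed the test (adjusted p = 0.198 and 0.403), though in both genes the groups did not overlap. RPS12, a protein of the small ribosomal subunit, had between 58.2 and 132 RPM in CTRL and between 87.3 and 133 in CTRLim.

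For 4 of the 20 leading genes the readthrough boundary lay inside another gene on the same strand, so the counts may hold reads of that gene. ACADM, a dehydrogenase of fatty acid oxidation, ranked 1 over all libraries with 177, 353 and 213 RPM in CTRL and 513, 433 and 408 in CTRLim (adjusted p = 0.126). ENSG00000251184, whose boundary lay in the nuclear pore gene NUP188, ranked 1 in CTRL with 288, 258 and 286 RPM and 14 in CTRLim with 231, 161 and 175. ENSG00000239920 ranked 3 over all libraries, and its span (chr11:5254392-5678434) covers that of HBE1. Its boundary lay in ENSG00000284931, and the next gene on the same strand was HBG1, 4435 bases on. Only 1 covering gene was recorded for each boundary. HBG2, whose annotated span holds the boundary of HBE1, may therefore cover this boundary as well. ENSG00000239920 had between 189 and 341 RPM in CTRL and between 191 and 369.8 in CTRLim. Whether its reads came from HBG2 or another globin gene was not tested. The other is HBE1, described with the genes that differed. Genes with such a boundary made up 18.0% of the genes tested and 12 of the top 50.

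**Figure D1:**
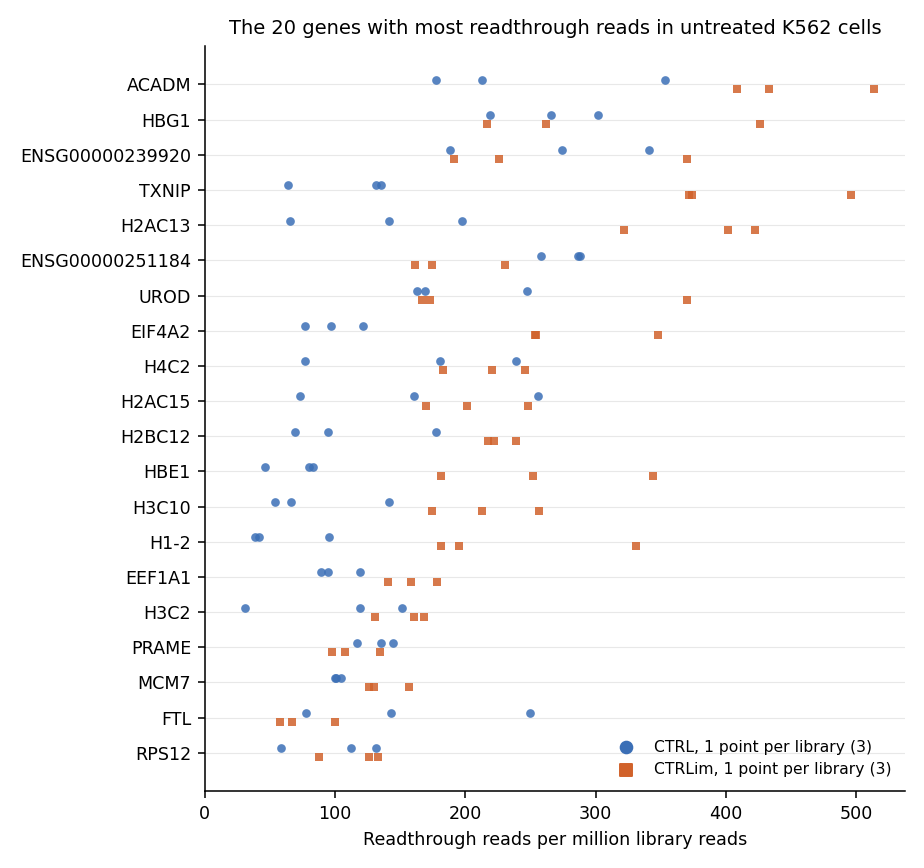
RPM of the 20 leading genes, with 1 point for each library of CTRL (circles) and CTRLim (squares), ordered by the mean over the 6 libraries. HBG1, UROD and PRAME overlap between the groups, whereas the points of TXNIP, EIF4A2, HBE1 and H1-2 stand apart, with CTRLim higher.

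Most of the leading histones ended in the stem-loop. Of the 12 replication-dependent histones among the top 50 genes, 11 held the stem-loop in their last 50 bases, and the exception was H3C10, whose annotated transcript runs on to an AATAAA hexamer. Over all matched transcripts the stem-loop was found in 0.386% (49 of 12704, of which 48 were histones). The hexamer AATAAA was found in 60.4% of all matched transcripts, in 54.5% of the tested genes with an annotation and in 19 of the top 50. A match is a count of letters and says nothing of the use of a site.

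The histone values varied widely within CTRL. H4C2 had 180.2, 239 and 77.3 RPM in CTRL and 183, 220.3 and 246 in CTRLim, and H3C2 had 119, 151 and 30.9 against 131, 168 and 160.5. In both genes CTRL replicate 3 was lowest of all 6 libraries, and the other 5 lay close together. What part the longer reads of CTRL replicate 3 had in its low histone values was not tested. All 63 replication-dependent histones together took 5.14%, 8.69% and 3.00% of the readthrough reads in the CTRL replicates and 7.04%, 9.07% and 8.87% in the CTRLim replicates. The groups overlapped in this share, though not in summed RPM, which lay between 1063 and 2882 in CTRL and between 3124 and 3442 in CTRLim.

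In CTRLim compared with CTRL, more genes were higher than lower per library read. Of 472 genes tested, 48 (10.2%) were higher and 2 (0.424%) were lower at an adjusted p under 0.05 (edgeR quasi-likelihood test, two-sided, Benjamini-Hochberg adjustment over all genes tested). The amino acid transporter SLC38A2, the stress gene DDIT4, the thioredoxin inhibitor TXNIP, the embryonic globin HBE1, the mitochondrial MT-CO1 and the linker histone H1-2 were among those that were higher. With replicates 2 and 3 of CTRLim as 1 library, 21 genes were called, all of them higher and all among the 48 (4.45% of those tested). All 3 CTRLim libraries lay above all 3 CTRL libraries in 122 genes (25.8%) and below them in 30 genes (6.36%). The minimum of 30 reads was taken over both groups, so a gene nearly absent from 1 group could be tested through the other. SLC38A2, DDIT4, TPP2 and ANKRD62, with at most 3 reads in each CTRL library, reached it through CTRLim. Other called genes also had too few CTRL reads to reach it alone. Among them were YOD1 (4, 3 and 3 reads in the CTRL libraries), RPL7 (7, 10 and 5), ZNF22, CDK1 and HNRNPC. Shares of called genes in small lists therefore partly reflect which members were tested.

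The direction of the whole comparison depends on the scaling. The median log2 fold change of all genes tested was 0.31 per library read and -0.07 with TMM scaling, which sets the bulk of genes near 0, and changes of single genes are best read against 0.31. With TMM scaling 23 genes (4.87%) were higher and 24 (5.08%) lower. Both lower genes and 23 of the 48 higher ones were called under both scalings. With TMM scaling and replicates 2 and 3 as 1 library, only SLC38A2 was called (0.212%), and 97 genes had an unadjusted p under 0.05. The count also fell from 50 to 26 without CTRL replicate 1 and rose to 81 without CTRL replicate 3.

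SLC38A2 (chr12:46358188-46372773), a sodium-coupled transporter of neutral amino acids that is a known target of the integrated stress response, had the smallest adjusted p. It had 2.77, 7.31 and 7.73 RPM in CTRL and 113, 75.9 and 102 in CTRLim. The log2 fold change was 3.95 ± 0.47 SE with an adjusted p of 4.0e-05, and of the genes tested only this one was called under each alternative in which it was tested. DDIT4 (chr10:72273924-72276036), a stress-induced inhibitor of mTORC1, had 5.54, 2.44 and 11.6 RPM in CTRL and 39.2, 35.2 and 63.0 in CTRLim. TXNIP (chr1:145992435-145996579), a glucose-responsive inhibitor of thioredoxin, ranked 4 over all libraries, with 63.8, 132 and 135 RPM in CTRL and 496, 374 and 372 in CTRLim. The lowest CTRLim library of TXNIP was more than 2 times the highest CTRL library. Its log2 fold change was 1.91 ± 0.38 (adjusted p = 0.00383, and 0.0290 with replicates 2 and 3 as 1).

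HBE1 (chr11:5268345-5505604), the embryonic globin, had 80.4, 82.8 and 46.4 RPM in CTRL and 344, 181 and 252 in CTRLim, whereas the fetal HBG1 overlapped between the groups. The log2 fold change of HBE1 was 1.84 ± 0.37 (adjusted p = 0.00427). Its boundary lay within the annotated span of HBG2, and whether reads of that gene were counted was not tested. The difference between HBE1 and HBG1 was not tested either.

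EIF4A2 (chr3:186783577-186789897), an RNA helicase of translation initiation whose introns host snoRNAs, had 97.0, 122 and 77.3 RPM in CTRL and 348, 254 and 254 in CTRLim. The log2 fold change was 1.5 ± 0.34 (adjusted p = 0.00912). TAF1D, a subunit of the RNA polymerase I factor SL1 and likewise a snoRNA host, had 19.4, 36.5 and 42.5 RPM against 95.7, 143 and 118. RPL7, a protein of the large ribosomal subunit with many processed copies in the genome, had between 19.3 and 24.4 RPM in CTRL and between 81.3 and 109 in CTRLim (adjusted p = 0.00208). These 3 genes were also called with replicates 2 and 3 as 1 library. TPP2, a large cytosolic peptidase, had 2.77, 2.44 and 7.73 RPM in CTRL and 30.5, 40.7 and 32.5 in CTRLim. YOD1, a deubiquitinase, had between 7.31 and 11.6 RPM against between 42.7 and 56.6. ANKRD62 had 0 reads in CTRL and 39.2, 31.5 and 26.4 RPM in CTRLim, which is at least 3.56-fold higher when 3 reads are allowed in each CTRL library.

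CYC1, cytochrome c1 of respiratory complex III, was among the 2 genes called lower. It had 49.9, 41.4 and 38.7 RPM in CTRL and 17.4, 14.8 and 16.3 in CTRLim, and the groups did not overlap. The log2 fold change was -1.44 ± 0.38 SE (edgeR adjusted p = 0.0210). CYC1 was not called with replicates 2 and 3 as 1 library (adjusted p = 0.0751), nor by DESeq2.

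**Figure D2:**
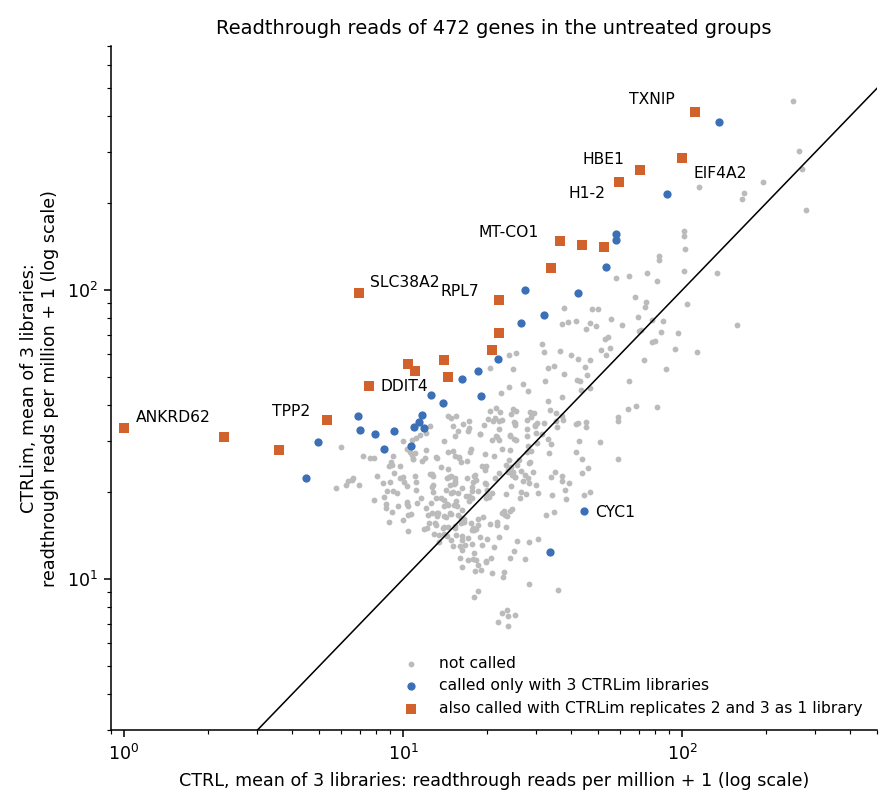
Mean RPM (plus 1, log scales) of the 472 genes tested, CTRL on the horizontal and CTRLim on the vertical axis, each the mean of 3 libraries, with the line of equality. The 21 genes marked by squares stayed called with CTRLim replicates 2 and 3 as 1 library, and all lie above the line, while CYC1 lies below it.

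By function, 200 of the 472 tested genes belonged to at least 1 of 30 lists, and 31 of the 50 called genes did. Of the replication-dependent histones, 35 were tested, 6 were higher (H1-2, H2AC13, H2AC25, H3C10, H2BC13 and H4C9) and none were lower, which is 17.1% against 10.2% of all genes tested. With TMM scaling 3 of the 35 were higher, against 4.87% of all genes tested. The groups did not overlap in 13 of the 35, all higher in CTRLim. The median log2 fold change of the 35 was 0.62, which is 0.31 above the median of all genes. H1-2, a linker histone, had 41.6, 95.02 and 38.7 RPM in CTRL and 331, 181 and 195 in CTRLim (log2 fold change 1.94 ± 0.40, adjusted p = 0.00526). H4C9 had 38.8, 65.8 and 23.2 RPM against 122, 154 and 150.3. H1-2 and H4C9 were the histones also called with replicates 2 and 3 as 1 library. H2AC13 (chr6:27808173-27808667), the leading histone, had 141, 197 and 65.7 RPM against 322, 402 and 423, and its adjusted p rose from 0.0202 to 0.115 there. Without CTRL replicate 3, in which histones were lowest, the list lay 0.05 above the median of all genes, and its summed RPM was 1.45 times that of CTRL rather than 1.76 times. Of 3 tested histones of the replication-independent kind, H2AZ1 was higher (adjusted p = 0.0496).

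Of 11 mitochondrially encoded genes, 6 were tested and 2 were higher (33.3%, against 10.2% of all genes tested), MT-CO1 and MT-ND5, and both were also called with replicates 2 and 3 as 1 library. With TMM scaling only MT-CO1 was called. MT-CO1, a subunit of cytochrome c oxidase, had 47.1, 24.4 and 34.8 RPM in CTRL and 169.7, 141 and 130.0 in CTRLim (log2 fold change 2.04 ± 0.36, adjusted p = 0.00208). MT-ND5, a subunit of complex I, had 61.0, 43.9 and 50.3 RPM against 183, 146 and 91.4. The 11 genes together took 0.500% ± 0.0660 of readthrough reads in CTRL (SD, n = 3) and 1.08% ± 0.0877 in CTRLim (SD, n = 2), and their groups did not overlap. These transcripts are made inside mitochondria and not on chromatin, and what part carried-over mitochondrial RNA had in the difference was not tested.
Proteins of the same organelle that are coded in the nucleus were counted separately. Of 8 tested respiratory chain genes, ATP5F1E was higher (adjusted p = 0.0348, and 0.0573 with replicates 2 and 3 as 1) and CYC1 lower, and the list's median lay at -0.34 relative to that of all genes. Of 8 tested mitochondrial ribosomal proteins, 0 were called by edgeR per library read and 1 lower with TMM scaling (MRPL14), and the list's share of readthrough reads was lower in every CTRLim library than in any of CTRL.

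Of the integrated stress response genes, a programme set off by phosphorylation of eIF2, 6 of 26 were tested and 3 were higher (50%, against 10.2% of all genes tested), SLC38A2, DDIT4 and GADD45A. SLC38A2 (1, 3 and 2 reads in the CTRL libraries) and DDIT4 (2, 1 and 3) reached the minimum of 30 reads through CTRLim. The share of 50% therefore partly reflects which genes were tested. With TMM scaling 2 of the 3 were called, SLC38A2 and DDIT4. GADD45A, a growth arrest and DNA damage gene, had 27.7, 46.3 and 19.3 RPM in CTRL and 104, 72.2 and 67.0 in CTRLim, and it was not called with replicates 2 and 3 as 1 library (adjusted p = 0.0958). All 26 genes together took 0.549%, 0.661% and 0.600% of readthrough reads in the CTRL replicates and 0.990%, 0.937% and 1.05% in CTRLim, so that the groups stood apart. Their summed RPM had a mean over 3 libraries of 205 in CTRL and 400 in CTRLim. The 3 called genes made up most of that difference. SLC38A2 had means of 5.94 and 96.9 RPM and DDIT4 of 6.53 and 45.8. The share of the list without the called genes was not computed. The median of the list, 0.48 above that of all genes, was -0.05 relative to it when genes with at least 10 reads were tested. TXNIP was the 1 tested gene of 6 in the glucose-responsive list and BHLHE40, a transcriptional repressor, the 1 tested gene of 13 in the hypoxia list, and both were higher. BHLHE40 was not called with replicates 2 and 3 as 1 library.

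Genes of RNA metabolism were represented by several lists. Of 21 tested SR, hnRNP and RBM proteins, 3 were higher (14.3%, near the 10.2% of all genes tested), HNRNPC, HNRNPU and RBM15, and the list's median lay at -0.07 relative to that of all genes. HNRNPC, which packages nascent transcripts, had 16.6, 19.5 and 23.2 RPM in CTRL and 65.3, 55.5 and 63.0 in CTRLim (adjusted p = 0.00827, and 0.0437 with replicates 2 and 3 as 1). RBM15, a cofactor of RNA methylation, had 44.4, 53.6 and 73.5 RPM against 196, 129.6 and 118. Of 8 tested snoRNA host genes EIF4A2 and TAF1D were higher, and of 5 tested DEAD and DEAH box helicases DDX5 was higher (adjusted p = 0.0151). HNRNPU, RBM15 and DDX5 were not called with replicates 2 and 3 as 1 library (adjusted p = 0.0751, 0.0566 and 0.0515). Of 35 tested cytosolic ribosomal proteins, RPL7 and RPSA were higher (5.71%), of which only RPL7 was called with replicates 2 and 3 as 1 library, and the median lay at -0.12 relative to that of all genes. EIF4A2 was the 1 called gene of 6 tested translation factors.
Of 13 tested ZNF genes, ZNF22, ZNF330 and ZNF239 were higher (23.1%, against 10.2% of all genes tested), and 1 was higher with TMM scaling. ZNF22 had 19.4, 4.87 and 3.87 RPM in CTRL and 74.0, 40.7 and 48.8 in CTRLim, and of these 3 only ZNF22 was called with replicates 2 and 3 as 1 library.

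Cell cycle and signalling genes were thinly covered. CDK1, the mitotic kinase, was the 1 called gene of 4 tested in the G2 and M phase list, with 2.77, 17.1 and 19.3 RPM in CTRL and 78.3, 31.5 and 58.9 in CTRLim (adjusted p = 0.0162). ID1, an inhibitor of bHLH factors, was the 1 called gene of 4 tested STAT5 target and cytokine feedback genes (adjusted p = 0.0141, and 0.0588 with replicates 2 and 3 as 1). SLC38A2 was the 1 called gene of 7 tested solute carriers and HBE1 the 1 called of 2 tested globins. The lists of proteasome subunits (5 tested), heat shock proteins (5), cytoskeleton genes (7), S phase genes (3), cholesterol and fatty acid synthesis (3), glycolysis (2), heme synthesis (2), erythroid membrane and iron genes (2), 3′ end processing factors (2), erythroid transcription factors (1) and immediate early genes (1) held no gene called by edgeR per library read, where 138 of all 472 genes had an unadjusted p under 0.05. With TMM scaling PSMC5 of the proteasome, RRM2 of the S phase list and FTL were called lower. No gene of the endoplasmic reticulum chaperone list was tested. The share of readthrough reads on glycolysis genes was between 0.382% and 0.449% in CTRL and between 0.235% and 0.332% in CTRLim, and that on proteasome subunits between 0.757% and 1.02% against between 0.578% and 0.586%. In both lists every CTRLim library lay below every CTRL library in this share. In summed RPM this held for glycolysis, whereas the proteasome subunits overlapped (between 252 and 364 RPM in CTRL and between 222 and 257 in CTRLim).

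**Figure D3:**
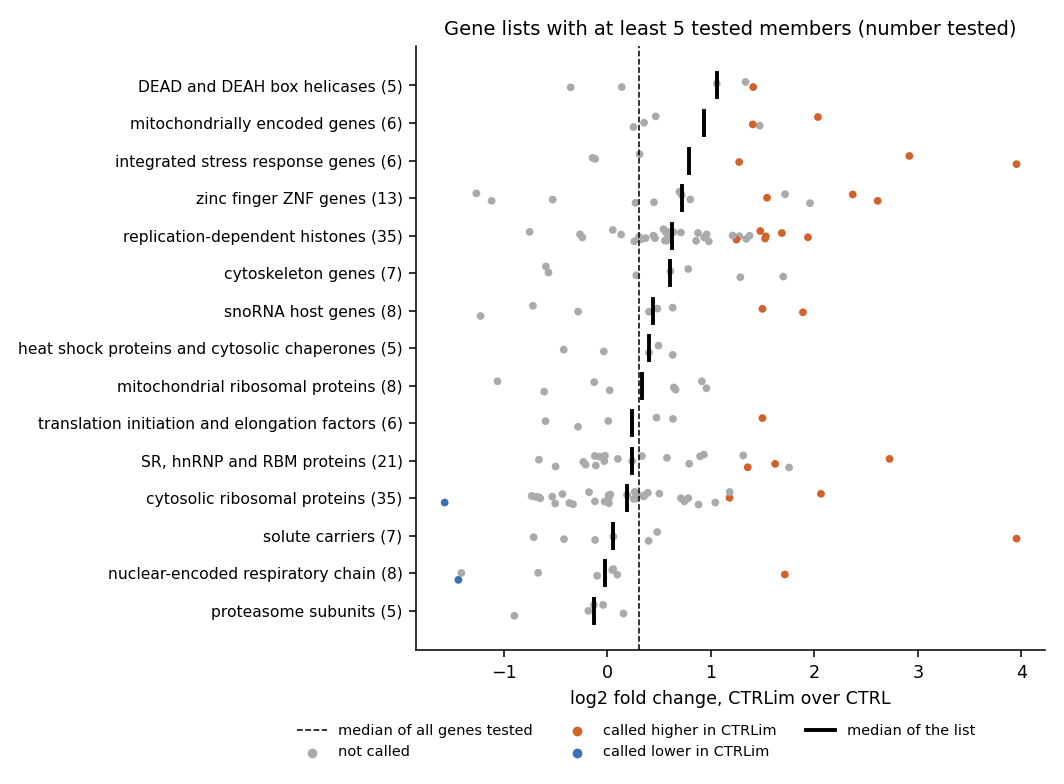
Log2 fold change of CTRLim over CTRL for each tested gene of the 15 lists with at least 5 tested members, with the list's median (bar) and the median of all genes tested (dashed line, 0.31), and called genes in colour. The medians of the DEAD and DEAH box, mitochondrially encoded, stress response, ZNF and histone lists lie to the right of the dashed line by 0.31 or more, and all lists but the proteasome subunits hold genes on both sides of it.

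Base composition past the gene end moved with the comparison. Tested genes were divided into 4 classes of nearly equal size by the GC content of the 500 bases past their annotated end, at 38.8%, 44.2% and 49.7%, and genes with fewer reads were placed by the same limits. Genes of the class with the lowest GC took 18.3%, 21.2% and 25.5% of readthrough reads in the CTRL replicates and 30.7%, 29.5% and 29.5% in CTRLim. Genes of the class with the highest GC took 33.2%, 28.2% and 23.7% in CTRL and 19.9%, 21.6% and 21.9% in CTRLim. In both classes the groups did not overlap in this share, the CTRL libraries spread over a wider range than CTRLim, and CTRL replicate 3 stood nearest to CTRLim. In summed RPM the lowest class had 6099, 7034 and 9049 in CTRL and 13609, 11193 and 11334 in CTRLim, again without overlap. The highest class had 11067, 9358 and 8423 RPM in CTRL and 8836, 8175 and 8418 in CTRLim, which overlapped.
Gene by gene, 20 of 115 genes of the lowest class were higher (17.4%), among them EIF4A2, HNRNPC, CDK1 and RPL7, and 0 were lower. In the highest class 3 of 114 were higher (2.63%), DDIT4, ID1 and APEX1, and 2 were lower, CYC1 among them. With replicates 2 and 3 as 1 library, 8 genes of the lowest class and 1 of the highest (DDIT4) were called, all higher. The groups stood apart with CTRLim higher in 51 genes of the lowest class (44.3%, against 25.8% of all genes tested) and in 16 of the highest (14%). With TMM scaling 10 genes of the lowest class and 2 of the highest were higher. Of the 24 lower genes under that scaling, 12 were in the highest class, FTL among them. The median log2 fold change was 0.79, 0.34, 0.29 and -0.01 from the lowest class to the highest. Leaving out each library in turn, the median of the lowest class lay between 0.30 and 0.56 above the median of all genes and that of the highest between -0.45 and -0.31 relative to it.
The treated libraries of the series, which share no sample with these, gave between 30.9% and 36.8% on the lowest class in the imatinib groups, whose control is CTRLim, and between 21.2% and 24.4% in JTE 1h. The KCl libraries gave 22.2%, 30.4% and 29.0%. Treatment and preparation cannot be told apart in these values.

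**Figure D4:**
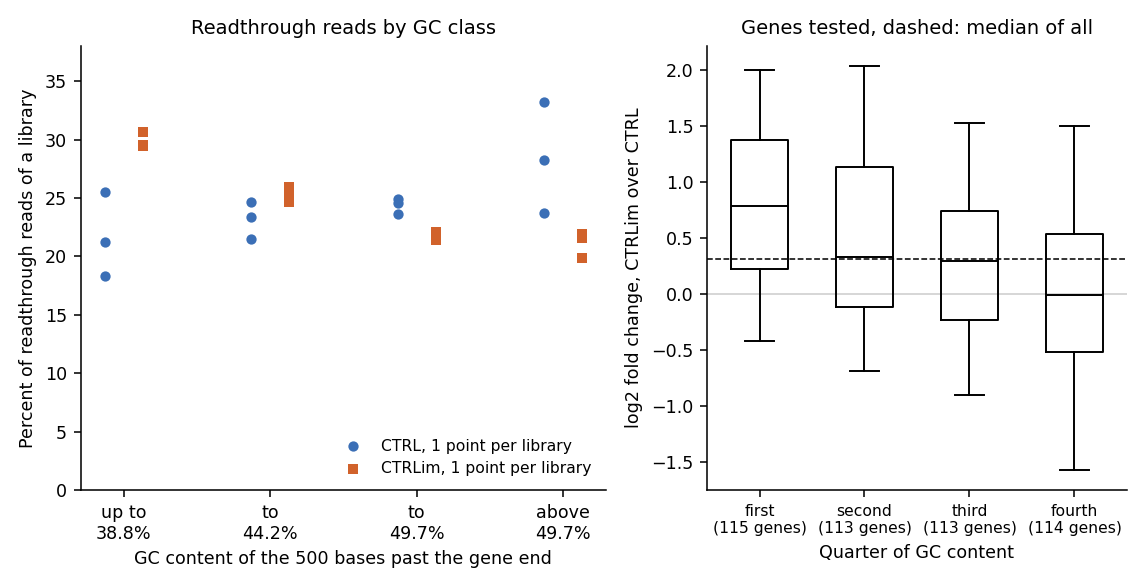
Left, percent of the readthrough reads of each library on genes in 4 classes of GC content of the 500 bases past the gene end, with 1 point per library of CTRL (circles) and CTRLim (squares). Right, log2 fold change of the tested genes of each class, with median, quartiles and whiskers at the 5th and 95th percentile, where the medians fall from 0.79 in the lowest class to -0.01 in the highest and the boxes overlap.

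Gene structure was compared in the same way. With the tested genes in 4 classes by length of the last exon, 17 of 114 genes in the longest class were higher (14.9%), among them SLC38A2, YOD1 and ZNF22, against 6 of 115 in the shortest (5.22%), and the medians were 0.69 and 0.05. With replicates 2 and 3 as 1 library the counts were 7 and 3, and with TMM scaling 8 and 3. The 48 higher genes had a median last exon of 1397 bases, against 877 over all genes tested. By length of the whole gene, 17, 10, 10 and 11 genes were higher from the shortest class to the longest. These are 14.9%, 8.77%, 8.85% and 9.65%, against 10.2% of all genes tested. Of 55 tested single-exon genes 9 were higher (16.4%), of which 8 were histones or mitochondrial genes and CCDC71L was the other. With replicates 2 and 3 as 1 library 4 single-exon genes were called.
Genes whose boundary lay inside another gene on the same strand took 17.3%, 18.0% and 14.6% of readthrough reads in CTRL and 13.8%, 13.7% and 13.9% in CTRLim. In summed RPM they overlapped, with 5755, 5981 and 5163 in CTRL and 6130, 5194 and 5350 in CTRLim. Of 85 such genes tested, HBE1 and CCDC71L were higher (2.35%, against 10.2% of all genes tested). The median of the 85 lay at -0.31 relative to that of all genes. With TMM scaling 1 of them was higher and 10 were lower, of 24 lower genes over all tested, ENSG00000251184 among them. The groups did not overlap in 9 with CTRLim higher (10.6%, against 25.8% of all) and in 10 with CTRLim lower (11.8%, against 6.36%). With a neighbour on the same strand within 5 kb, 9 of 73 were higher (12.3%), and with none, 37 of 297 (12.5%). An opposite-strand gene within 5 kb was present for 192 tested genes, of which 15 were higher (7.81%), against 33 of 263 without one (12.5%). By hexamer, 25 of 248 genes with AATAAA, 7 of 55 with ATTAAA and 16 of 152 with neither were higher. These are 10.1%, 12.7% and 10.5%, against 10.2% of all genes tested. With replicates 2 and 3 as 1 library the counts were 10, 3 and 8. Of 17 tested transcripts that matched no annotation, 0 were called by edgeR per library read and 2 were lower with TMM scaling.

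Most genes that were higher in CTRLim also had larger means in the imatinib libraries than in the other treated libraries, a comparison of means with no test. Of the 48, 43 had a larger mean RPM in IM 1h than in JTE 1h (89.6%), against 55.5% of all genes tested, and 45 had a larger mean in IM 18h than in KCl (93.8%, against 71.8%). In these pairs the treatments differ as well, so preparation and treatment cannot be told apart. Across the 472 genes the Spearman correlation of log2(RPM + 1) lay between 0.516 and 0.691 within CTRL, between 0.659 and 0.760 within CTRLim and between 0.363 and 0.507 between them. These values are across genes, which are not independent replicates, and they also move with depth, since the libraries held between 9172 and 20486 readthrough reads.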

How the data were processed

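The readthrough table holds whole-number counts per transcript that the authors made from PacBio reads of chromatin-bound RNA, trimmed with cutadapt and mapped with minimap2 to GRCh38. The authors removed polyadenylated reads and splicing intermediates, and the deposited counts were used without change. Per library 9172 to 20486 readthrough reads in 6 libraries set the precision. Reads per 1000000 library reads (RPM) used the study's list of reads per library, after both removals, as totals. The authors collapsed duplicate reads by molecular identifier, kept 1 placement per read and dropped repeated read names. The limit of 3 reads covers counting error only.

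Of 13051 transcripts, 12704 (97.3%) were matched to GENCODE 44 by identifier. Genes with at least 30 reads over the 6 libraries (472) were tested with the quasi-likelihood test of edgeR 4.0.16 in R 4.3.3, with these totals as library sizes and no covariate, and Benjamini-Hochberg adjustment. DESeq2 1.42.0, other scalings, other minimum counts and left-out libraries were alternatives. The share of readthrough reads was compared by exact permutation. Fits were tested on simulated data. Same-numbered libraries of the groups did not deviate together (r between -0.216 and -0.0263 over genes), so no pairing by number was seen. Libraries of unlike number had r between -0.0899 and 0.216. With 3 libraries per group and sparse counts, the check cannot exclude a pairing.

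Genes were named by rule: the 20 with the highest RPM, the 10 called genes in each direction with the smallest adjusted p whose libraries did not overlap, and called members of the lists, at most 4 for each list and direction. APEX1 and CCDC71L were named after their values were seen, and RPSA was added to the ribosomal protein list after its value was seen because the list's name pattern had missed it. Members and lists were chosen with earlier results of these data known. The other 12 libraries were used only where stated. Some genes are not reported here.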

Additional observations from a re-analysis of the deposited data

How the results depend on the processing

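Results rest on few libraries and sparse counts, and the groups differ in preparation. No direction of a called gene reversed under the alternatives run. Against 50 called genes (48 higher, 2 lower), a minimum of 10 reads gave 86 (74 and 12) and of 60 reads 29 (28 and 1). TMM scaling gave 23 higher and 24 lower, DESeq2 size factors in edgeR 24 and 21, total readthrough reads as library size 31 (26 and 5), and all 18 libraries in 1 fit 0 lower. DESeq2 gave 26, all higher and 0 lower, where edgeR had 31 lower genes at an unadjusted p under 0.05. With CTRLim replicates 2 and 3 as 1 library, an alternative chosen after seeing the data like the class values without single libraries, 21 were higher and 0 lower by edgeR (19 lower at an unadjusted p under 0.05), and with TMM scaling in addition 1 was higher and 0 lower. Leaving out each library in turn gave 18 to 81 called genes, 17 to 64 higher and 0 to 17 lower, and the number was lowest without CTRLim replicate 2. With a replicate block, though no pairing by number was seen, 51 genes were called (48 and 3). Among class medians relative to all genes, leaving out 1 library gave -0.30 to -0.10 for cytosolic ribosomal proteins, 0.60 to 1.38 for mitochondrially encoded genes, 0.05 to 0.75 for histones and 0.33 to 1.22 for integrated stress response genes, which stood at -0.048 with a minimum of 10 reads. The readthrough share difference lay between 0.421 and 0.743 points, the genes shared by the top 50 between 31 and 35, and the share on the top 100 genes between 23.3% and 25.1% when 1 library was left out. The cause of these changes was not tested.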
